A study of Mus musculus with 48 samples.

Results

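The genes described here are 6 anion exchangers, ammonia transporters and a transcription factor of the kidney's intercalated cells: Slc4a1, Slc26a4, Slc4a9, Rhcg, Rhbg and Foxi1. They were taken as every probe set annotated to these symbols on the A and B chips of the Affymetrix mouse 430 array set, which gave 8 of 45137 probe sets, and 6 of the 18193 genes that had a symbol. Slc4a1 had 3 probe sets and each other gene had 1. After a filter on low signal, 7 of the 8 probe sets remained, and all 6 genes kept at least 1. Whole kidney RNA was measured in a factorial experiment with Hyp or normal genotype, low phosphate or control diet, and male or female mice. The Hyp allele disrupts Phex, a gene on the X chromosome. The Hyp males were hemizygous, the Hyp females were heterozygous, and the controls were normal littermates. All mice were 10 weeks old, had eaten their diet for 3 days and drank deionized water. The label of 1 array names the strain as C57BL/6J. The 72 mice were pooled by 3, so that each of the 8 groups had 3 pools, 24 in all, and every pool went onto both chips. The groups were Hyp males on low phosphate, Hyp males on control diet, Hyp females on low phosphate, Hyp females on control diet, and the 4 matching groups of normal mice. Pooling narrows the spread seen between samples, so all p-values refer to pools and not to single mice.

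Intercalated cells are the acid-base cells of the connecting tubule and collecting duct. Type A cells secrete acid into the urine and return bicarbonate to the blood through the basolateral exchanger AE1, encoded by Slc4a1. Type B cells secrete bicarbonate and take up chloride through the apical exchanger pendrin, encoded by Slc26a4, and carry the basolateral transporter AE4, encoded by Slc4a9. Rhcg and Rhbg are ammonia channels of the distal nephron that also occur in other cells of these segments. Foxi1 is a forkhead transcription factor that intercalated cells need to form and that stands above many of their transport genes. Slc4a1 is also the gene of band 3, the main anion exchanger of red blood cells, so blood left in a kidney could add to its signal. In whole kidney RNA, fewer cells of a type and less RNA per cell cannot be told apart.

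The median signal of an array was 164.6 to 211.1 for the A chip, and 50.8 to 68.3 for the B chip. Between replicate pools, r across features was 0.923 to 0.946. The sex labels fitted the arrays: Xist lay between 62.1 and 180.3 in male pools and between 1457.9 and 2011.4 in female pools, and the Y-linked Eif2s3y reached 332.8 in male pools and at most 6.9 in female pools. The 2 probe sets of Phex were above the array median on 0 of 24 arrays, with signals of 1.2 to 30.4 in Hyp pools and 1.5 to 49.8 in normal pools, so they checked nothing about the genotype labels. The kidney markers Umod and Slc34a1 were bright, at 18730.4 to 24712.4 and 9785.3 to 18724.4. The 6 genes themselves lay above the array median on all 24 arrays of their chip in their main probe set. Of the further intercalated cell markers, Atp6v1g3 had no named probe set and Insrr did not pass the filter.

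The first comparison set the low phosphate diet against the control diet. Slc26a4, Slc4a9 and Rhcg were higher on low phosphate, so both type B genes rose while the type A gene did not. These 3 of 6 genes passed limma's test at an adjusted p under 0.05. Over all 18642 features, 0.418% were called higher on the diet and 0.354% lower. No member was called lower.

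Pendrin showed the clearest difference. In Hyp males, Slc26a4 had signals of 1856.3, 1791.6 and 1682.8 on low phosphate, against 1122.4, 1181.1 and 1105 on control diet. In Hyp females it had 1908.1, 1846.8 and 1684.8 on low phosphate, against 1271.3, 1061.7 and 1134.8 on control diet. Every Hyp pool on low phosphate was above every Hyp pool on control diet. In normal males it had 1241.9, 1401.3 and 1390.8 on low phosphate, against 828.7, 715.1 and 884.8 on control diet. In normal females it had 1684.5, 1822 and 1521.8 on low phosphate, against 1104.5, 995.4 and 1219.3 on control diet. The groups did not overlap in any of the 4 combinations of genotype and sex, a pattern that 0.0751% of all features shared. Slc26a4 was 1.58-fold higher on low phosphate (log2 0.66 ± 0.05 SE, 12 pools against 12, adjusted p = 3.97e-07 by limma with Benjamini-Hochberg adjustment). The diet difference of Slc26a4 also passed within each stratum, with log2 values of 0.64 in Hyp males, 0.65 in Hyp females, 0.74 in normal males and 0.60 in normal females. Their adjusted p-values by limma, in the same order, were 0.0147, 0.0183, 0.00355 and 0.0347. In limma's fit to every probe set with no filter they were 0.0691, 0.0623, 0.0187 and 0.0899, so only the call in normal males held there. Features called higher within these strata made up 0.0375% of all features in 3 of them and 0.0483% in normal males.

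AE4, the other type B gene, followed with a smaller difference. In Hyp males, Slc4a9 had signals of 503.9, 529.5 and 526.9 on low phosphate, against 391.7, 416.7 and 385.7 on control diet. In Hyp females it had 617.2, 602 and 605.9 on low phosphate, against 363.8, 515.6 and 424.2 on control diet. Here too the groups did not overlap, and the 3 Hyp female pools on low phosphate were the highest of all 24. In normal males it had 418.5, 382.6 and 474.5 on low phosphate, against 311.1, 300.1 and 259.9 on control diet. In normal females it had 558.9, 552.3 and 408.5 on low phosphate, against 394.4, 377.5 and 358.4 on control diet. The 4 strata were again apart, although 1 normal female pool on low phosphate came close to the control pools. Slc4a9 was 1.38-fold higher on low phosphate (log2 0.46 ± 0.08 SE, limma adjusted p = 0.00471). Within single strata none of its 4 diet differences passed (log2 0.39 to 0.55).

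**Figure D1:**
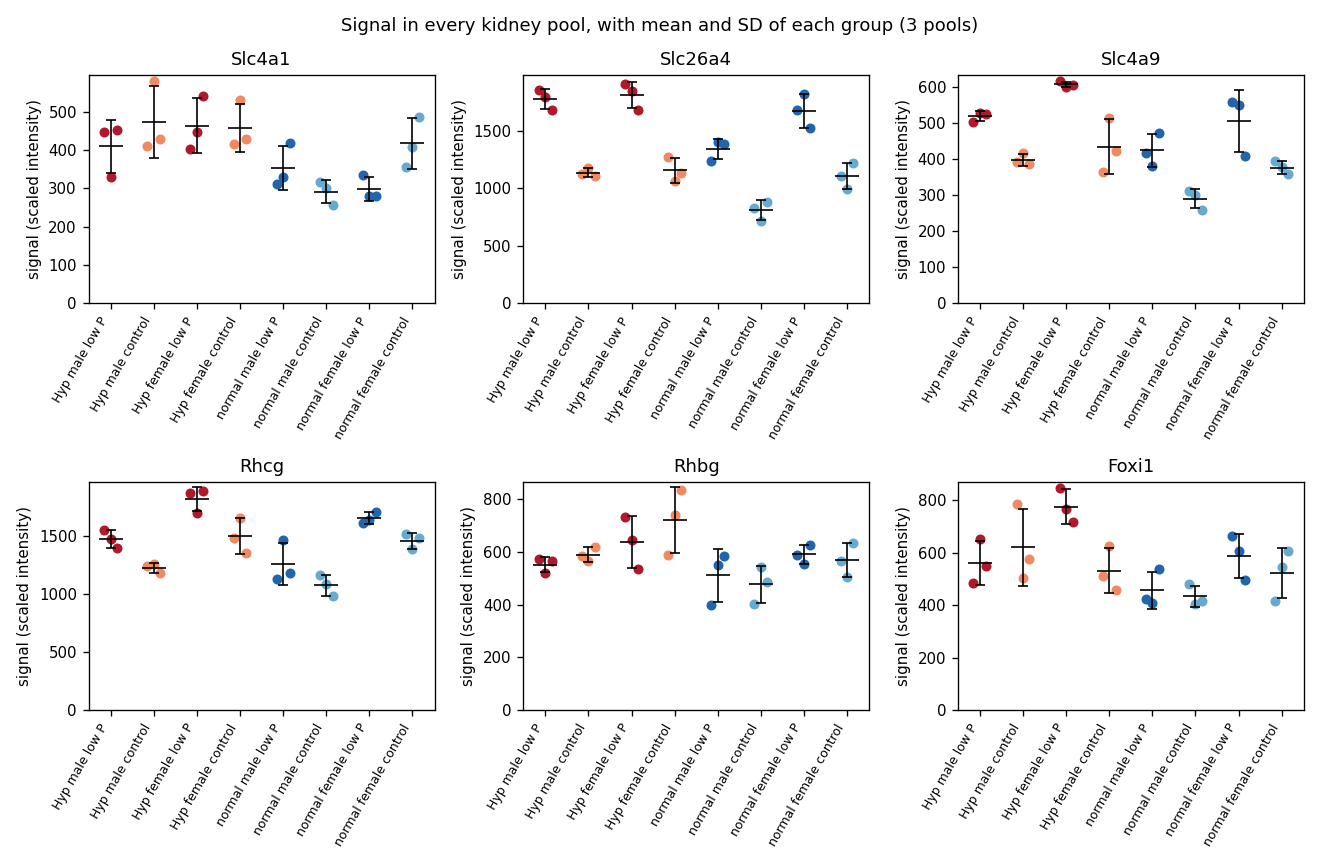
Signal (scaled intensity, linear axis from 0) of the 6 genes in every kidney pool, by group. Points are pools, and black bars are the mean and SD of 3 pools. For Slc26a4 and Slc4a9 every low phosphate group sits above its own control group, and normal males on control diet have the lowest mean for each of the 6 genes in its main probe set.

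Rhcg, the apical and basolateral ammonia channel, rose by less. In Hyp males it had signals of 1551.4, 1475.9 and 1395.1 on low phosphate, against 1238.8, 1258 and 1180 on control diet. In Hyp females it had 1870.2, 1698.3 and 1888 on low phosphate, against 1484.4, 1658.8 and 1350.5 on control diet. Both Hyp strata were apart. In normal males it had 1131.9, 1462.9 and 1178.1 on low phosphate, against 1164.8, 1083.7 and 983.3 on control diet. In normal females it had 1613.3, 1640.8 and 1711.9 on low phosphate, against 1517, 1385.1 and 1480.1 on control diet. The normal male groups overlapped and the other 3 strata did not. The share of all features apart in 3 strata was not counted. Rhcg was 1.18-fold higher on low phosphate (log2 0.24 ± 0.05 SE, limma adjusted p = 0.0391). This call was lost in 18 of the 24 fits that left out 1 pool (adjusted p up to 0.0828), with arrays scaled to a common median (adjusted p = 0.127) and with no filter on low signal (adjusted p = 0.0795).

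The other 3 genes did not pass for diet. Slc4a1 had a log2 difference of -0.10 ± 0.09 SE (limma adjusted p = 0.809), with a 95% interval of -0.28 to 0.08. Its second bright probe set, described below, differed by log2 -0.23 ± 0.09 SE in limma's fit to every probe set (adjusted p = 0.534). The 95% interval there was -0.42 to -0.04. In normal males the 2 probe sets had opposite signs, at 0.27 ± 0.17 for the main one and -0.29 ± 0.18 for the second. The interval of Slc26a4 was 0.54 to 0.77, and the difference between the genes was not tested. The lowest, median and highest of the 12 pools for Slc4a1 were 279.1, 368 and 541.2 on low phosphate, against 256.8, 413 and 580 on control diet. Rhbg, the basolateral ammonia channel, had a log2 difference of -0.03 ± 0.08 SE (95% interval -0.19 to 0.13). It ranged over 398.5, 569 and 732.8 on low phosphate, against 402.7, 575 and 834.9 on control diet, in the same order of lowest, median and highest. Foxi1 had a log2 difference of 0.17 ± 0.09 SE (95% interval -0.02 to 0.36). In their main probe sets, the pools of these 3 genes overlapped between diets in at least 3 of the 4 strata.

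Slc26a4 and Rhcg are shown with the sequence before their starts because both rose on the diet and had a window that was read. No window was read for Slc4a9, which also rose on the diet. RefSeq promoter windows (GRCm38.p6) were read for 3 of the 6 genes, Slc26a4, Rhcg and Foxi1. The 250 bases before the start of Slc26a4 lie at chr12:31559985-31560234 and those of Rhcg at chr7:79617658-79617907, both on the minus strand. Capitals mark matches on either strand to the letters of 4 motifs. The TATA box was searched as TATAAA. The letters CCAAT stood for the CCAAT box. For the GC box they were GGGCGG. A forkhead core was searched as TGTTTA.
Slc26a4: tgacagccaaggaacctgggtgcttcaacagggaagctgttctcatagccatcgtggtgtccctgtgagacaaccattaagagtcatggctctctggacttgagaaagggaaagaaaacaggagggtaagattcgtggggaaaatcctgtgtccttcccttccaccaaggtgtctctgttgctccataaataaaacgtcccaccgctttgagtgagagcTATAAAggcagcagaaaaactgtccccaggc
Rhcg: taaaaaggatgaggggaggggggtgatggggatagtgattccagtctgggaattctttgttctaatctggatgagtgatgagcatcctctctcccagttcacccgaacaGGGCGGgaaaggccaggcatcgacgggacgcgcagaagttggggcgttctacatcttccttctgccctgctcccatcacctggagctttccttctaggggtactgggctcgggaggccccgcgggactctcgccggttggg
The Slc26a4 window held 1 TATA box match, which begins 31 bases before the start, and no GC box. The Rhcg window held 1 GC box match, beginning 141 bases before the start, and no TATA box. Of 32851 promoter windows of this length, 12.4% held the TATA letters and 32.7% the GC letters. The CCAAT letters were in 33.8% of windows and in neither of these. The forkhead core, found in 3952 of the windows, matched none of the 3 windows, which says only that these letters are not there. The Slc26a4 window had 49.6% G and C bases and the Rhcg window 58.4%.

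The second comparison set Hyp pools against normal pools. All 6 genes had higher means in Hyp pools, and 2 of them, Slc4a1 and Slc26a4, passed the test. Over all features, 1.04% were called higher in Hyp pools and 0.907% lower. Pendrin thus passed for both diet and genotype, and Slc4a1 for genotype.

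Slc4a1 had the largest genotype difference of the 6. In males on low phosphate it had signals of 445.7, 329.5 and 452.4 in Hyp pools, against 312.2, 330 and 419.4 in normal pools. In males on control diet it had 411.3, 580 and 427.7 in Hyp pools, against 316.9, 300.1 and 256.8 in normal pools. The first pair of groups overlapped and the second did not. In females on low phosphate it had 401.7, 446.4 and 541.2 in Hyp pools, against 335, 279.5 and 279.1 in normal pools. In females on control diet it had 415.6, 529.4 and 427.9 in Hyp pools, against 355.1, 408.4 and 487 in normal pools. Groups were apart in 2 of the 4 strata, as were those of Slc26a4 and Foxi1. The share of all features apart by genotype in 2 strata was not counted, so nothing is read from these counts. Slc4a1 was 1.33-fold higher in Hyp pools (log2 0.42 ± 0.09 SE, limma adjusted p = 0.00993).

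The other Slc4a1 probe sets were read in limma's fit to all 45137 probe sets with no filter, where 3 of the 8 member probe sets were called for genotype, 2 for diet and 2 for sex, against 0.749%, 0.266% and 7.7% of all probe sets. Leaving out 1 pool gave 0 to 3 for genotype. The main one, used here unless another is named, gave an adjusted p of 0.037 there. A second one, whose _x_at suffix marks probes that may match other transcripts too, ranged from 180.9 to 399.1 and was higher in Hyp pools by log2 0.39 ± 0.09 SE, with an adjusted p of 0.04997, just under the threshold. The remaining one was above the array median on 0 of 24 arrays, with signals of 12.1 to 88.8, and differed by log2 -0.00 ± 0.39 SE. The 2 brighter probe sets gave genotype differences of 0.42 and 0.39, and the dim one has an error too large to set beside them.

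Red blood cell genes were set beside Slc4a1 because band 3 is its product in those cells. Of 15 listed genes, 10 had a named probe set and 5 passed the filter, and 0 of the 5 were called for genotype or for diet. Over all features, 1.04% were called higher and 0.907% lower for genotype, and 0.418% and 0.354% for diet. A count of 0 of 5 therefore says little. Their median log2 genotype difference was 0.26, against -0.00 over all features. Of the 5, 3 had a positive genotype difference, Ank1 among them. By its A chip probe set with no filter, Ank1 differed by log2 -0.27 ± 0.17 SE instead. The count and the median thus depend on the probe set. Alas2, the erythroid enzyme of heme synthesis, differed by log2 0.57 ± 0.16 SE (limma adjusted p = 0.0879) and Hbb-b2, a beta globin, by 0.26 ± 0.20. Sptb and Klf1 went the other way, at -0.26 each. For sex, 1 was higher in males, the cytoskeletal adaptor Ank1 (0.98 ± 0.24, but -0.32 by its other probe set with no filter), and 1 lower, the erythroid factor Klf1 (-0.36 ± 0.10). The named probe sets read for the alpha globins Hba-a1 and Hba-a2 were above the array median on 0 of 24 arrays, with median signals of 41.6 and 59.6. Probe sets annotated to several symbols carried no name here, so any globin signal on those is missing from these values. The summed signal of the 10 genes, by named probe sets only, was 820.8 to 1434 in Hyp pools and 844.8 to 1486.3 in normal pools. Red cell RNA as a part of the Slc4a1 difference was not tested.

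Among the type B genes, Slc26a4 was 1.21-fold higher in Hyp pools (log2 0.27 ± 0.05 SE, limma adjusted p = 0.00856). Its difference was log2 0.45 ± 0.08 in males (limma adjusted p = 0.00288) and 0.09 ± 0.08 in females (limma adjusted p = 0.804). The test of that difference, the genotype by sex interaction, gave log2 0.36 ± 0.11 SE (limma adjusted p = 0.52), so it did not pass, and 0.0805% of all features did. Features called higher in Hyp pools made up 0.794% in males and 0.284% in females. For Slc4a9, Hyp pools were above normal pools in 3 of the 4 strata, with the share of all features not counted. The gene differed by log2 0.31 ± 0.08 SE (limma adjusted p = 0.0515) and stood just outside the threshold. It passed under 6 of 12 other settings, with adjusted p-values from 0.00934 to 0.158 over all 12.

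The ammonia channels and Foxi1 did not pass for genotype. Rhcg differed by log2 0.15 ± 0.05 SE (limma adjusted p = 0.236), Rhbg by 0.22 ± 0.08 (0.229) and Foxi1 by 0.31 ± 0.09 (0.0962). The lowest, median and highest Foxi1 signals were 456.1, 601 and 848.4 in Hyp pools, against 404.9, 489 and 664 in normal pools. Those of Rhbg were 518.9, 587 and 834.9 in Hyp pools, against 398.5, 553 and 635.9 in normal pools. Both genes' ranges overlapped widely.

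**Figure D2:**
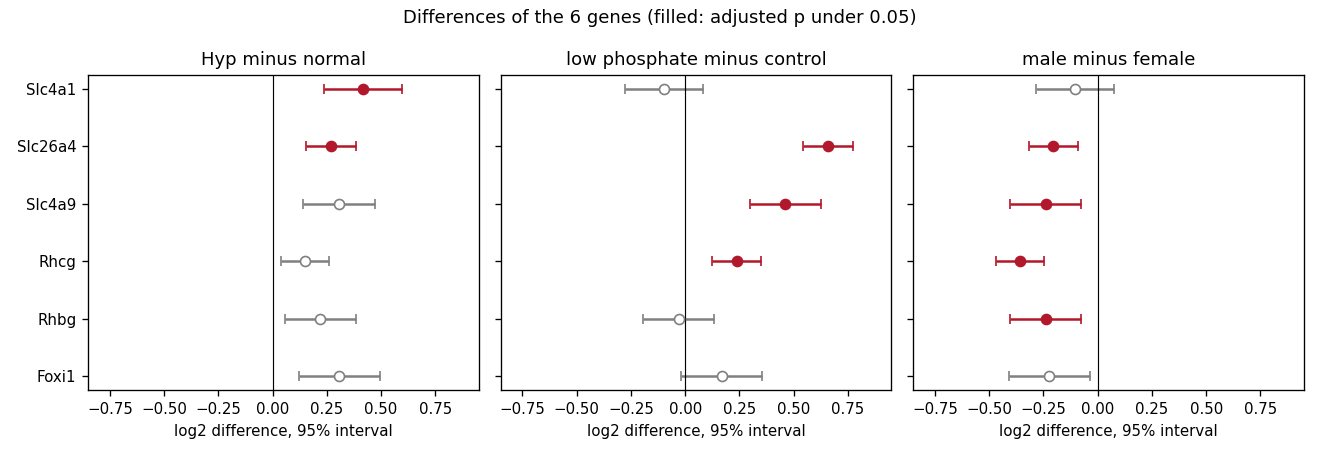
Log2 differences of the 6 genes with 95% intervals, for Hyp minus normal, low phosphate minus control and male minus female (12 pools against 12 each). Filled points have an adjusted p under 0.05 by limma: Slc4a1 and Slc26a4 for genotype, Slc26a4, Slc4a9 and Rhcg for diet, and Slc26a4, Slc4a9, Rhcg and Rhbg for sex.

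The contrast of type A with type B genes was read within each pool as the log2 signal of Slc4a1 minus that of a type B gene. Probe sets differ in brightness, so the level of this difference was not read and only its change between groups was. A score over genes chosen with results known got no p, and the difference between the genes' effects was not tested. Slc4a1 minus Slc26a4 was -2.14 ± 0.31 on low phosphate and -1.38 ± 0.23 on control diet (SD, n = 12 each), a change of -0.76. The diet change was -0.85 in Hyp males, -0.64 in Hyp females, -0.46 in normal males and -1.08 in normal females. Every low phosphate pool was below every control pool in 3 of the 4 strata, the exception being normal males. Slc4a1 minus Slc4a9 was -0.45 ± 0.27 on low phosphate and 0.11 ± 0.18 on control diet (SD, n = 12 each), a change of -0.56. It was lower in every low phosphate pool in all 4 strata. How often other pairs of genes are apart in this way was not counted. In normal females, where the change was largest, Slc4a1 itself differed by log2 -0.48 ± 0.17 (limma adjusted p = 0.612).

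By genotype, Slc4a1 minus Slc26a4 was -1.68 ± 0.46 in Hyp pools and -1.83 ± 0.49 in normal pools, and Slc4a1 minus Slc4a9 was -0.11 ± 0.34 in Hyp pools and -0.22 ± 0.39 in normal pools (SD, n = 12 each). Those SDs span both diets and sexes, so they do not measure the error of the differences, 0.15 and 0.11, which were not tested. Against Slc26a4 the genotype difference ran from -0.20 in males on low phosphate to 0.52 in females on low phosphate. Against Slc4a9 it ran from -0.09 to 0.35 in the same groups. Computed with the _x_at probe set of Slc4a1, the diet change was -0.89 against Slc26a4 and -0.69 against Slc4a9. Computed with the dim probe set, whose error is large, it was -0.07 against Slc26a4 and 0.13 against Slc4a9.

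**Figure D3:**
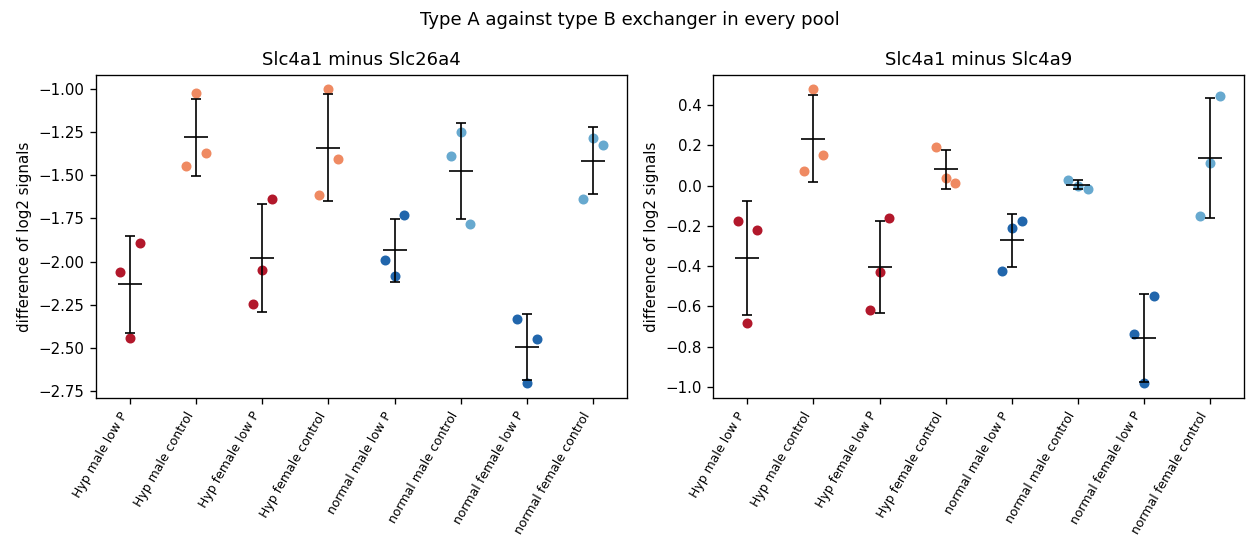
Log2 signal of Slc4a1 minus that of Slc26a4 (left) or Slc4a9 (right) in every pool, by group, with the mean and SD of 3 pools in black. Pools on low phosphate sit lower than pools on control diet, by 0.76 on the left and 0.56 on the right on average; the vertical position itself depends on probe brightness.

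The next comparison asked whether the diet difference itself differed between the genotypes. None of the 6 genes passed the genotype by diet test, and 0.0161% of all features did. Before adjustment, 0 of the 6 had a p under 0.05 (0.199 to 0.973). The interaction of Slc26a4 was log2 -0.02 ± 0.11 SE, with a 95% interval of -0.25 to 0.21, beside diet differences of 0.65 in Hyp pools and 0.67 in normal pools, both called (0.0644% and 0.198% of features were called higher). The diet difference of Slc4a9 was 0.44 in Hyp pools and 0.48 in normal pools, with an interaction interval of -0.37 to 0.29. Intervals of this width do not show equal responses. Rhbg had the interaction farthest from 0 (log2 -0.21 ± 0.16 SE), with -0.13 ± 0.11 in Hyp pools and 0.07 ± 0.11 in normal pools. The interactions with sex did not pass either. For Slc4a1 the term of all 3 factors was -0.97 ± 0.35 (limma adjusted p = 0.999), and for Foxi1 the diet by sex term was -0.40 ± 0.18 (limma adjusted p = 0.897). Of all features, 0% were called for either term.

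**Figure D4:**
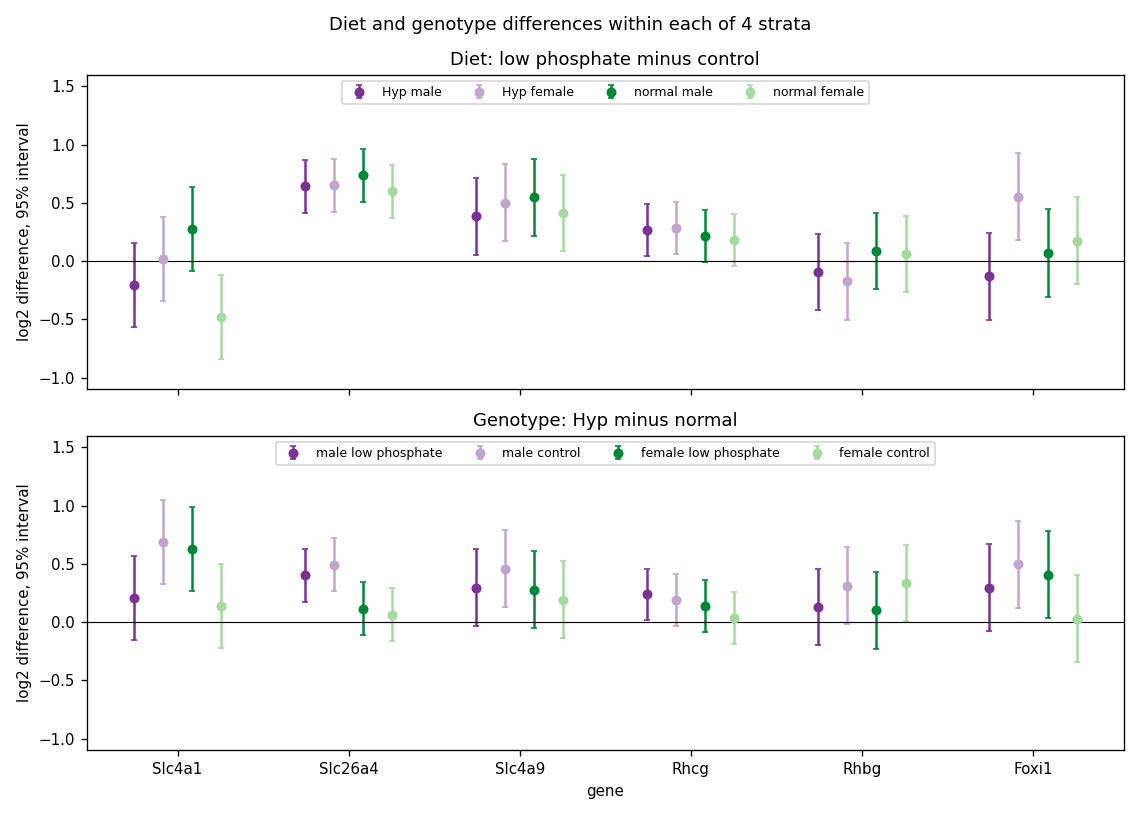
Log2 differences with 95% intervals for diet (top) and genotype (bottom) within each of the 4 strata of the other factors, 3 pools against 3. The diet difference of Slc26a4 runs from 0.60 to 0.74 in all 4 strata, while that of Slc4a1 in its main probe set runs from -0.48 to 0.27. The genotype difference of Slc26a4 is 0.40 and 0.49 in males and 0.12 and 0.06 in females.

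The last main comparison set males against females. All 6 genes had lower means in males, and Slc26a4, Slc4a9, Rhcg and Rhbg passed. Over all features, 9.78% were called lower in males and 6.07% higher. Rhcg had the largest difference, at 1.28-fold lower in males (log2 -0.36 ± 0.05 SE, limma adjusted p = 5.22e-05). Its lowest, median and highest signals were 983.3, 1209 and 1551.4 in males, against 1350.5, 1627 and 1888 in females. Male pools lay below female pools in all 4 strata, as for 1.61% of features. Slc26a4 was lower by log2 -0.20 ± 0.05 (limma adjusted p = 0.0127). Its sex difference was -0.02 ± 0.08 in Hyp pools and -0.38 ± 0.08 in normal pools (limma adjusted p = 0.911 and 0.00216), and the genotype by sex test given above did not pass. Features called lower in males made up 3.37% in Hyp pools and 6.05% in normal pools. Slc4a9 and Rhbg were both lower by -0.24 ± 0.08 (limma adjusted p = 0.0441 and 0.0422), calls that were lost in 20 and 17 of the 24 fits without 1 pool. Foxi1 and Slc4a1 had values of -0.22 ± 0.09 and -0.10 ± 0.09 that did not pass.

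With each array scaled to a common median, the median sex difference of all features was 0.02 in place of -0.05, and 63.6% of the features called for sex were higher in males in place of 38.3%. All 6 genes had lower means in males under both scalings, and of the 4 called genes only Rhcg was still called with the common median (log2 -0.26, limma adjusted p = 0.00292). Markers of some other cells were also lower in males. The summed signal of 8 principal cell genes was 7539.2 to 9646.1 in males and 9819.4 to 12002.1 in females, and that of 4 endothelial genes 1947.2 to 2763 in males and 2679.6 to 3232.5 in females. Sums of 7 proximal tubule genes overlapped, at 40421.9 to 49886.8 in males and 38584 to 53393.2 in females, as did those of 5 thick ascending limb genes, at 28620.4 to 37374.3 in males and 32197.5 to 37831 in females. Their part in the sex differences of the 6 genes was not tested.

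The 8 group means can be ordered for each gene. For all 6 genes in their main probe sets, normal males on control diet were lowest, the group that was lowest for 15.5% of all features. By the _x_at probe set of Slc4a1 the lowest mean was instead 198.4, in normal males on low phosphate, against 243.1 in normal males on control diet. For Slc26a4 the order of means was 1813.2 in Hyp females on low phosphate, 1776.9 in Hyp males on low phosphate, 1676.1 in normal females on low phosphate and 1344.7 in normal males on low phosphate, followed by 1155.9, 1136.2, 1106.4 and 809.5 in the control groups of Hyp females, Hyp males, normal females and normal males. Neighbours in this order overlapped except at 2 steps: normal females on low phosphate stood above normal males on low phosphate, and normal females on control diet above normal males on control diet. For Slc4a9 the highest mean was 608.4, in Hyp females on low phosphate, and the lowest 290.4, in normal males on control diet, and each stood apart from its neighbour. For Rhcg the same groups had the highest and lowest means, 1818.8 and 1077.3, and only the lowest group was apart from its neighbour. For Foxi1 the same 2 groups stood at the ends, at 776.5 and 433.3, with every neighbour overlapping. The highest Slc4a1 mean was 473, in Hyp males on control diet, and its lowest 291.3. The highest Rhbg mean was 721.6, in Hyp females on control diet, and its lowest 477.7. Neighbours overlapped throughout for both.

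The type A list (Slc4a1, Kit, Aqp6, Slc26a7 and Adgrf5) had 5 of 5 genes measured, and 1, Slc4a1, was called for genotype. All 5 had positive genotype differences, with a median of log2 0.35 against -0.00 over all features. The receptor Kit differed by 0.35 ± 0.09 (limma adjusted p = 0.0585), the vesicle water channel Aqp6 by 0.41 ± 0.11 (0.0845), the exchanger Slc26a7 by 0.35 ± 0.13 (0.286) and the adhesion receptor Adgrf5 by 0.26 ± 0.09 (0.213). For diet 0 of the 5 were called, which says little where so few features were called, and the median was -0.05. For sex 1 was called, Adgrf5, at -0.32 ± 0.09, and 0 to 2 of the list were called under the 12 other settings. The summed signal of the list was 2150.3 to 3018.1 in Hyp pools and 1613.5 to 2474.6 in normal pools. The sum and the medians include Slc4a1 itself. Adgrf5 was the brightest gene in the sum, with a median signal of 1041.3 against 409.85 for Slc4a1. Slc26a7 entered the sum by a dim probe set, above the array median on 0 of 24 arrays, and not by the one that passed the filter.

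The type B list had 4 of 5 genes measured. For diet 2 were called higher, Slc26a4 and Slc4a9, and the median was log2 0.38 against 0.01 over all features. The homeobox gene Hmx2 differed by 0.29 ± 0.11 (limma adjusted p = 0.356) and the oxoglutarate receptor Oxgr1 by 0.02 ± 0.08 (0.974). The summed signal of the 5 listed genes was 2379.4 to 3331.5 on low phosphate and 1569.6 to 2554.7 on control diet. This sum and the list's median include Slc26a4 and Slc4a9, with median signals of 1256.6 and 417.6 over all pools. They are therefore not separate from the differences of those genes. For genotype 1 was called higher, Slc26a4, and for sex Slc26a4 and Slc4a9 were lower in males. In the list taken as shared by intercalated cells, 5 of 6 genes were measured. Whole kidney RNA does not show which cell type carries Rhcg or Rhbg. For genotype 1 was called, the proton pump subunit Atp6v0d2, at log2 0.32 ± 0.08 with a limma adjusted p of 0.0498, a call lost in 23 of 24 fits without 1 pool and with arrays scaled to a common median (0.197). The pump subunit Atp6v1b1 differed by 0.25 ± 0.07 (0.112). For diet 1 was called, Rhcg. For sex 3 were lower in males, Rhcg, Rhbg and Atp6v1b1 (-0.32 ± 0.07).

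**Figure D5:**
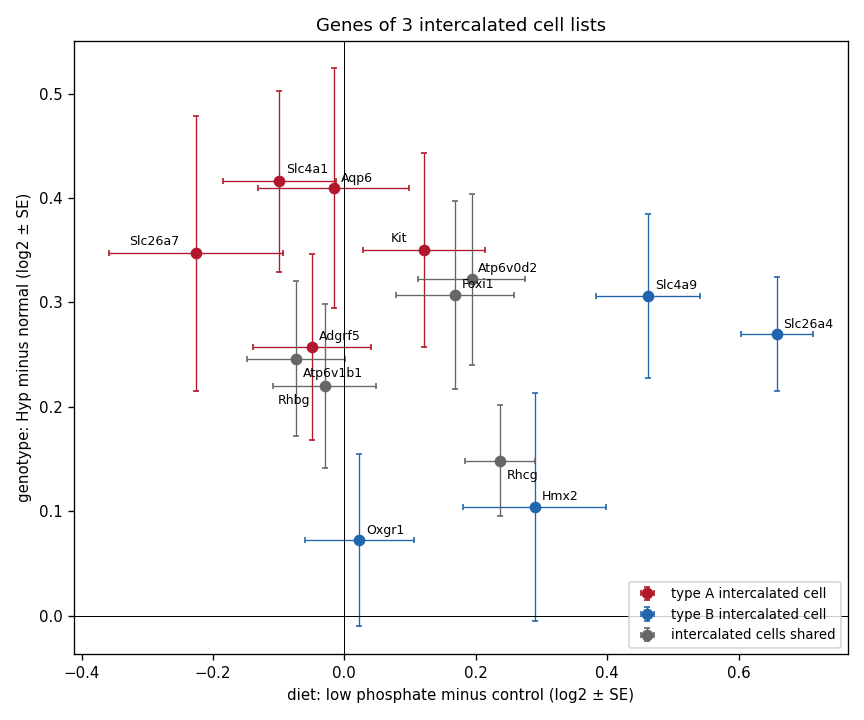
Diet difference (horizontal) and genotype difference (vertical) of the measured genes of the type A, type B and shared intercalated cell lists, in log2 with standard errors. All lie above 0 for genotype, and Slc26a4 and Slc4a9 lie farthest to the right for diet.

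Partner genes of acid and ammonia handling were read beside Rhcg and Rhbg. In the list of ammonia production and transport, 7 of 10 genes were measured, and on low phosphate 0 were called higher and 3 lower: Pck1, the rate-limiting enzyme of gluconeogenesis, at log2 -0.74 ± 0.09 (limma adjusted p = 7.14e-05), the glutamine transporter Slc38a3 at -0.66 ± 0.08 (0.000137) and glutamate dehydrogenase Glud1 at -0.47 ± 0.06 (0.000224). The potassium channel Kcnj1 was the 1 gene called for genotype, at 0.24 ± 0.06, a call lost in 22 of 24 fits without 1 pool. For sex 1 was higher in males, the cotransporter Slc12a2 (0.32 ± 0.07), and 3 lower, Glud1, Pck1 and Kcnj1 (-0.47 to -0.32). In the list of proton pump and carbonic anhydrase partners, 8 of 10 were measured. Car15, a membrane carbonic anhydrase, was the 1 gene called for diet, at -0.47 ± 0.06. Atp6v0d2 was higher in Hyp pools and the potassium chloride cotransporter Slc12a7 lower (-0.25 ± 0.06, lost in 14 of 24 such fits), and 5 genes were lower in males: Atp6v1b1, Atp6v1c2, Car2, Car15 and the chloride channel subunit Bsnd (-0.39 to -0.26). Under the 12 other settings, 3 to 6 genes of this list were called for sex.

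Relatives of the exchangers were read beside them. In the SLC4 family, 5 of 8 other members were measured, and the 1 call was the sodium bicarbonate cotransporter Slc4a4, lower in Hyp pools at log2 -0.28 ± 0.05 (limma adjusted p = 0.00179; 0.148 with its brighter probe set). In the SLC26 family, 6 of 10 other members were measured, with 0 called for genotype or diet at an adjusted p under 0.05 by limma. The 1 call for sex was the sulfate transporter Slc26a1, higher in males at 0.78 ± 0.16. Of the genes of chloride and sodium reabsorption that act beside pendrin in the distal nephron, 10 of 10 were measured and 0 were called for diet. Over all features 0.418% were called higher on the diet and 0.354% lower, so this 0 says little. The thiazide-sensitive cotransporter Slc12a3 was the 1 gene called for genotype, at 0.50 ± 0.05 (limma adjusted p = 1.35e-06), and 6 were lower in males: Slc12a3, the 3 epithelial sodium channel subunits Scnn1a, Scnn1b and Scnn1g, the kinase Wnk1 and the mineralocorticoid receptor Nr3c2 (-0.39 to -0.27). Under the 12 other settings, 1 to 6 genes of this list were called for sex. The sex calls of Scnn1b and Nr3c2 were lost in 14 and 13 of the 24 fits without 1 pool. Of the transcription factors Tfcp2l1, Dmrt2 and Hmx2, 2 were measured and 0 were called.

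Markers of neighbouring segments changed in both directions. Among 7 distal convoluted and connecting tubule genes, Slc12a3 rose in Hyp pools while the calcium-binding proteins Calb1 (log2 -0.33 ± 0.08) and Pvalb (-0.31 ± 0.07) fell, and Calb1 also fell on low phosphate (-0.77 ± 0.08). A further calcium-binding protein, S100g, was the 1 gene of the lists called for genotype by diet (-2.60 ± 0.19). It was lower in Hyp pools on low phosphate (-2.40 ± 0.13, limma adjusted p = 6.08e-10), with 0.20 ± 0.13 on control diet (limma adjusted p = 0.763). Its diet difference was -2.52 ± 0.13 in Hyp pools and 0.08 ± 0.13 in normal pools, so its averaged genotype and diet differences (-1.101 and -1.22), both called, describe neither stratum. For sex, Slc12a3, Pvalb, S100g and the protease Klk1 were lower in males (-0.48 to -0.17). Among 7 proximal tubule genes, the glucose transporter Slc5a2 (-0.64 ± 0.06), the phosphate transporter Slc34a1 (-0.30 ± 0.06) and the anion transporter Slc22a6 (-0.23 ± 0.05) fell in Hyp pools and the anion transporter Slc22a8 rose (0.31 ± 0.06). On low phosphate Slc5a2 rose (0.30 ± 0.06) and Slc22a6 fell (-0.23 ± 0.05, lost in 12 of 24 fits without 1 pool). In males Slc22a6 (1.23 ± 0.05) and Slc34a1 (0.24 ± 0.06) were higher, and Lrp2, Cubn, Slc5a12 and Slc22a8 lower (-0.52 to -0.24). Among 5 thick ascending limb genes, Ptger3, a prostaglandin receptor (0.42 ± 0.08), and Kcnj1 rose in Hyp pools, and Kcnj1, Ptger3 and the claudin Cldn16 were lower in males (-0.32 to -0.26). Of 6 principal cell, 4 endothelial, 3 leukocyte and 2 podocyte genes measured, 0 were called for genotype or diet by limma. With so few features called for either factor, these counts of 0 say little about those cells. For sex, Aqp4 (-1.28 ± 0.09) and Hsd11b2 (-0.35 ± 0.10) of principal cells, Emcn (-0.41 ± 0.06) and Pecam1 (-0.29 ± 0.07) of endothelium, and Podxl (-0.26 ± 0.08) and Nphs1 (-0.23 ± 0.07) of podocytes were lower in males. These sex calls depended on the settings. Under the 12 others, genes called were 1 to 5 for the distal convoluted and connecting tubule and 1 to 3 for the thick ascending limb. They were 1 to 3 for principal cells, 0 to 2 for podocytes, 5 to 6 for the proximal tubule and 2 throughout for endothelium. The summed proximal tubule signal was 38584 to 48613 in Hyp pools and 44084.5 to 53393.2 in normal pools, and its part in the genotype differences of the 6 genes was not tested. The summed distal convoluted and connecting tubule signal was 36449.3 to 59784.8 on low phosphate and 43374 to 65868.5 on control diet, and its part in the diet differences was likewise not tested.

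The genes most like each member were taken by Pearson's r of log2 signal over the 24 pools, among 11785 named genes. These values describe pools that share genotype, diet, sex and arrays, and carry no test. Slc26a4 was most like Mdk (r = 0.916), Dpp7 (0.898) and Slc4a9 (0.858). Slc4a9 was most like Slc26a4, Mdk (0.836) and Dpp7 (0.817). Mdk encodes the growth factor midkine and Dpp7 a lysosomal dipeptidyl peptidase. After each group's mean was taken out, Slc26a4 and Slc4a9 correlated at -0.133, so their likeness lay between groups. Slc4a1 was most like the sulfate transporter Slc13a1 (0.734), the adenylyl cyclase Adcy10 (0.732) and the phosphatase Ptpn3 (0.722), and correlated at 0.166 with Slc26a4 and 0.387 with Slc4a9. Rhcg was most like Apoe (0.873), Txndc5 (0.871) and Slc15a2 (0.864). Rhbg was most like Eif3i (0.778), Gfpt1 (0.773) and Lpp (0.767). Foxi1 was most like Foxp1 (0.728), Ccdc174 (0.709) and Tmprss2 (0.705).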

How the data were processed

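For each probe set the authors deposited a linear intensity, which GCOS 1.2 produced, per the submitters' processing notes. Which algorithm and which target it was run with is not stated there. On every array the 100 probe sets shared by the chips had a trimmed mean of 1200, so the deposited intensity had been scaled before. Symbols came from the platform's annotation, updated by Entrez identifier against the RefSeq gene table (34837 of 45137 probe sets matched; 35041 had 1 symbol, 936 several and 9160 none).

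Probe sets above the array median on at least 3 of 24 arrays were kept, and each gene was represented by its kept probe set with the highest mean, with A chip probe sets preferred. This gave 18642 features, 12838 of them named. A floor of 1 was set, log2 values were taken and limma 3.58.1 was applied (lmFit and eBayes, R 4.3.3) as 8 group means, each chip separately, with Benjamini-Hochberg adjustment over both chips and a threshold of 0.05. A value after ± is the SE of a log2 difference, or an SD where so marked. A second fit took every probe set without a filter. Precision is limited by the number of arrays.

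Named genes are all 6 members, the called genes of 17 lists, and the 3 genes most like each member. Members and lists were chosen with earlier results of these data known. All deposited sample columns were used. Alternatives were other pseudocounts, scalings, filters, probe set choices, adjustments, priors, array weights, a replicate block and leaving out each pool.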

Additional observations from a re-analysis of the deposited data

How the results depend on the processing

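For the 18 differences of the 6 genes (genotype, diet and sex), the direction was the same in 216 of 216 values under 12 other settings, and the side of the threshold in 200. With 1 pool left out, the direction was the same in 430 of 432 values, and both direction and side of the threshold in 372. The 2 exceptions in direction were the diet difference of Rhbg, never called, which ranged from -0.0643 to 0.0126 and was above 0, at 0.0006, without the third Hyp female low phosphate pool and, at 0.0126, without the first normal male low phosphate pool. The diet calls of Slc26a4 and Slc4a9 and the genotype calls of Slc4a1 and Slc26a4 held under these settings and with any 1 pool left out, but in the fit to every probe set the genotype calls were lost in some of those fits. With arrays scaled to a common median, 1 member was called lower in males in place of 4, 1 member probe set was called for genotype in place of 3 and 1 for sex in place of 2; 2 members were lower in males under quantile normalization and 2 with no filter. Members higher on the diet in normal pools were 2 in place of 1 under both scalings, the filter at 12 of 24 arrays, the trend and robust prior, and array weights. Under that prior 2 were also higher on the diet in Hyp pools. For genotype within males, 2 members were higher in Hyp than in normal males in place of 1, under that prior and with the mean of all kept probe sets. With the dim Slc4a1 probe set, the diet change of the type contrast was -0.067 against Slc26a4 and 0.13 against Slc4a9. With the brighter _x_at probe set it was -0.89 and -0.69. Ank1, a red cell gene, was called higher in males by its B chip probe set (log2 0.98 ± 0.24), but had a value of -0.32 with no filter, where an A chip probe set stood for it. The causes of these changes were not tested beyond what each setting alters.

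With 1 pool left out, members called were 2 to 3 for genotype, 2 to 3 for diet and 2 to 4 for sex; member probe sets called were 0 to 3 for genotype and 1 to 3 for sex; and members higher on the diet in normal pools were 1 to 2. The sex calls of Slc4a9 and Rhbg were lost in 20 and 17 of 24 such fits (adjusted p up to 0.0827 and 0.082). The labels number the pools by series, and the main fit used no block for this number. Deviations from group means correlated above 0.1 in 0 of 84 same-number pairs (mean 0.03). The mean of -0.015 for other numbers adds little, because deviations sum to 0 within each group. Yet 22 of 24 pools were on average closest to pools of their own number. Pools of a series thus shared a small likeness, which the main fit leaves in its error. With the replicate block, members called were 2 for genotype, 3 for diet and 4 for sex, as without it, but member probe sets called for genotype were 2 in place of 3, and features called were 438 in place of 363 for genotype and 185 in place of 144 for diet. Features called for diet were 94 with no filter in place of 144, and features called for genotype by diet 8 with the trend and robust prior in place of 3.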
